A study of Homo sapiens with 12 samples.

Results

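The peaks described here come from the authors' lists of acetylated sites on mRNA. They recurred, by overlap, in all 3 replicates of HaCaT keratinocytes overexpressing NAT10. Some of them lie on or beside genes of small non-coding RNAs or outside the gene they are named for. Each of the 3 overexpression replicates, OE1, OE2 and OE3, had an immunoprecipitated (IP) and an input library and gave 1 peak list. The core was built from the OE1 list: a peak was kept where it shared 1 or more bases with a peak of OE2, and then with a peak of OE3. A base common to all 3 lists was not required, and 505 core peaks had one. Of the 12157 OE1 peaks, 4396 overlapped a peak of OE2 (36.2%), 834 one of OE3 (6.86%) and 509 one of each, so the core holds 509 peaks (4.19% of the OE1 list) on 440 named genes, out of 61804 peaks in all lists of the series.

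HaCaT is an established human keratinocyte line, and the series gave it NAT10 overexpression plasmids or an empty vector, with 3 replicates of each and 12 libraries in all. The 3 vector lists enter here only through their number of peaks. The labels do not state that replicates came from different cultures, and the spread between lists may be technical. The overexpression lists held 12157, 12119 and 3105 peaks in OE1, OE2 and OE3 on 5798, 5949 and 2306 genes. Read depth is unknown, since the lists carry no read counts. Fold enrichment (IP over background, a linear ratio), score (minus 10 times the log10 of the p-value) and false discovery rate are the authors' values for each peak. The rate, read as percent because its values reach 100, was never below 57.75% in OE1, 52.88% in OE2 or 100% in OE3.

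N4-acetylcytidine (ac4C) is a cytidine with an acetyl group on the exocyclic nitrogen of its base. NAT10, a mostly nucleolar enzyme, places it on ribosomal RNA and, with the adaptor THUMPD1, on transfer RNA, and has been described as acting on mRNA too. In acetylated RNA immunoprecipitation an antibody pulls down RNA fragments that carry ac4C, and a peak marks a stretch where the pulled-down reads exceed the background.

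Sequences at core peaks are shown first for genes whose core peak covers the RefSeq start of the gene, because gene starts turned out to hold a large part of the core. The 5 stretches below are the 100 bases before and the first 30 bases of the gene for the 5 such genes with the highest folds among those with at least 30 of these bases inside the peak. They are written 5′ to 3′ on the strand of the gene from RefSeq (GRCh38.p14), and capitals mark the bases inside the OE1 core peak.
SHF (chr15:45201087-45201216, minus strand): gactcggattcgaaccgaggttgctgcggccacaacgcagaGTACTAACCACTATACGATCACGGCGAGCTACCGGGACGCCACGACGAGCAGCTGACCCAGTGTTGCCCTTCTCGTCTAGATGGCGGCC
MYBL2 (chr20:43667014-43667143, plus strand): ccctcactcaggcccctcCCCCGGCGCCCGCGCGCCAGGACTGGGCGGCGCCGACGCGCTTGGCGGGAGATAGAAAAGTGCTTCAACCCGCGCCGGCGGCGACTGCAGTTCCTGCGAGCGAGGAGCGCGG
SAPCD2 (chr9:137070528-137070657, minus strand): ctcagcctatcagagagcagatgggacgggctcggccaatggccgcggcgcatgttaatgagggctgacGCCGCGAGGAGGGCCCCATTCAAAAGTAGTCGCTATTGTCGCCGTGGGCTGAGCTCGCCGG
SH3GL1 (chr19:4400518-4400647, minus strand): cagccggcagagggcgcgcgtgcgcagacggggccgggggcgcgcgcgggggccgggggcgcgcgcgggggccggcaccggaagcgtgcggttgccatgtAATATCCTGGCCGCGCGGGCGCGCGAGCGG
E2F1 (chr20:33686356-33686485, minus strand): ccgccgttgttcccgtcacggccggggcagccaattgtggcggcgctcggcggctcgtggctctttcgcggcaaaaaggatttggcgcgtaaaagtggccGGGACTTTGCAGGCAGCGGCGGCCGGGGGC

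The starts of SH3GL1 and E2F1 were the exact ends of their core peaks, at 4400547 on chromosome 19 and 33686385 on chromosome 20. The listed interval thus covered the first bases of the gene and none before it. Whether listed ends follow the gene annotation was not tested, so nothing is read about signal before these starts. The core peaks of MYBL2, SAPCD2 and SHF ran past the RefSeq start into the bases before it. For SHF, 25 of the bases inside the peak belong to the histidine tRNA gene TRH-GTG1-9, at 45201151 to 45201222. The lower-case bases before them in the SHF stretch lie in that tRNA gene too. MYBL2 encodes a transcription factor of dividing cells, E2F1 the founding member of the E2F family of cell cycle factors, SH3GL1 an endophilin of endocytosis, SAPCD2 a regulator of spindle orientation, and SHF an adaptor protein with an SH2 domain. The first 50 bases of these genes had a G and C content of 68% in MYBL2, 78% in SAPCD2, 82% in SH3GL1, 78% in E2F1 and 54% in SHF.

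Core peaks lay at gene starts more often than the other peaks of the same list, in each of the 3 lists. A start window ran from 250 bases before to 50 bases after a RefSeq gene start, and 409 of the 509 core peaks were on genes for which both a window and a gene span were at hand. Of these, 4 lay outside the RefSeq span of the gene they were named for, which was ERCC1, KLC1 or PRKRIP1. In OE1, 118 of the 409 core peaks touched a window (28.9%, exact 95% interval 24.5 to 33.5%), against 1186 of 9385 other peaks (12.6%, 11.97 to 13.3%). The share was 30.2% of core peaks and 14.1% of other peaks in OE2, and 23.3% of core peaks and 10.4% of other peaks in OE3. The mean over lists was 27.4% ± 3.65 for core and 12.4% ± 1.89 for other peaks (SD, n = 3 lists). By the rule, the core peaks of the 3 lists overlap one another, so their 3 shares are not independent. Peaks of 1 list are not replicates, and the intervals cover counting error only.

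**Figure D1:**
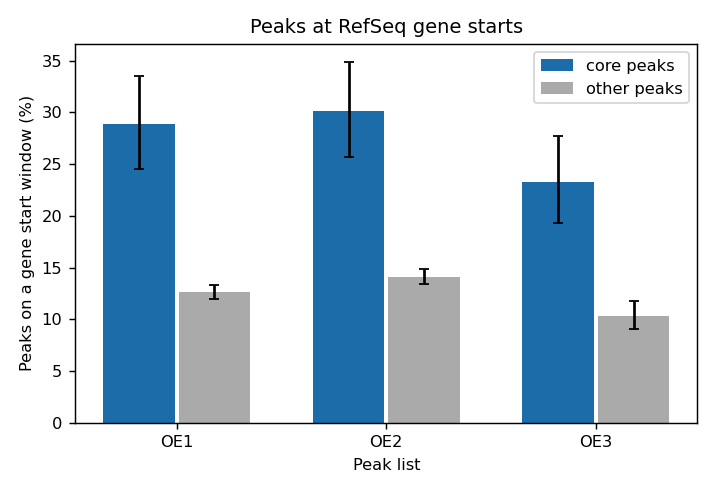
Percentage of peaks that touch a RefSeq gene start window (vertical axis) for core peaks (blue) and other peaks (grey) of the OE1, OE2 and OE3 lists, with exact 95% binomial intervals as bars. Core peaks stand at 23.3% to 30.2% and other peaks at 10.4% to 14.1%.

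Seen the other way, 9.05% of the OE1 peaks at a start window were in the core (118 of 1304), against 3.36% of peaks further inside the gene (270 of 8041) and 4.38% of those in the last 500 bases (17 of 388). The excess at gene starts was found among the peaks of high fold. In the highest quintile of OE1 by fold, 42.2% of core peaks (76 of 180) and 17.4% of other peaks (306 of 1763) touched a start window. In quintile 4 the shares were 29.3% of core and 13.1% of other peaks. In quintile 1 it was 13.8% of core and 8.26% of other peaks, with overlapping intervals. In quintiles 2 and 3 the shares were 10.5% of core and 11.9% of other peaks, and 14.7% of core and 13.05% of other peaks, again overlapping. Among the longest quintile of OE1 peaks, which are more likely to overlap anything, 37.8% of core peaks and 25.3% of other peaks touched a start. By length, quintile 4 had 39.8% of core and 20.9% of other peaks, and quintile 3 had 21.9% and 9.20%. Quintile 2 had 9.62% and 5.06%. The shortest quintile went the other way, with 0 of 33 core peaks and 4.05% of other peaks.

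Gene starts under a core peak were rich in G and C. The first 50 bases of the 118 windows had a median G and C content of 75% (quartiles 68% and 80%), against 72% for the 1184 windows under another OE1 peak and 64% for 22199 windows of all protein-coding genes. The median content of the 250 bases before the start was 73.4%, against 70.4% under other OE1 peaks and 62.0% for protein-coding genes. Acetylated cytidines have been described in repeats of a C followed by any 2 bases, so the first 50 bases were searched for the letters CNNCNNCNNCNN, overlapping matches counted once per window. On the strand of the gene, 58 of 118 core windows held it (49.2%, exact 95% interval 39.8 to 58.5%), against 40.8% under other OE1 peaks and 30.9% for all protein-coding genes. On the opposite strand the shares were 71.2%, 60.7% and 43.0% for the same sets. A match is a string of letters and not a mapped site, and the share of C alone in those 50 bases was 32% in core windows, 32% under other OE1 peaks and 28% for all protein-coding genes.

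NAT10, the overexpressed gene, carried more core peaks than any other gene, 14 against at most 5. RefSeq places this gene (identifier 55226) on chromosome 11 between 34105629 and 34146908. All 14 of its OE1 peaks were core, and their folds ran from 23.9 to 287 in OE1, from 5.07 to 31.6 in OE2 and from 6.83 to 46.4 in OE3. Among these 14, the OE1 peak at 34143445 to 34143528 had the highest fold in each list. OE1 was the highest list for all 14 peaks, by 3.74 to 11.9 times the lowest list. Because a plasmid supplies the same sequence, peaks on transcripts of the plasmid and of the chromosome cannot be told apart. Without NAT10 the core held 495 peaks.

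Besides NAT10, the core genes with the strongest enrichment in all 3 lists were led by ERCC1, MTRNR2L12, SHF, SOGA1, MYBL2 and SAPCD2. Genes were ranked by the lowest of their 3 folds, which is the value that every list reached or exceeded. For a gene with several core peaks, the highest fold was taken in each list, so its 3 folds can come from different positions. ERCC1, a subunit of a DNA repair endonuclease, stood at 134, 462 and 539 in OE1, OE2 and OE3, but its only core peak lies outside the RefSeq span of the gene. SOGA1, listed as MTCL2 in RefSeq, stood at 38.1, 19.2 and 36.02, but its strongest peak had no base common to all 3 lists. MYBL2 stood at 29.5, 37.0 and 18.8. These values show OE2 as the lowest list for SOGA1 and OE3 for MYBL2, so no list was low throughout. SAPCD2 stood at 52.4, 62.03 and 18.6.

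E2F1 had folds of 24.6, 38.4 and 17.8 in OE1, OE2 and OE3. TNKS2, a tankyrase that attaches ADP-ribose chains to proteins, had 24.2, 18.4 and 25.5, so its highest list was 1.38 times its lowest. DGAT1, which makes triglycerides, had 44.9, 30.1 and 17.1. The matrix genes TIMP3, an inhibitor of metalloproteinases, and GPC1, a heparan sulfate proteoglycan, both stood above 16 in every list. TIMP3 had 17.6, 26 and 17.1. GPC1 had 16.3, 25.4 and 24.1. Others of the 20 highest were the cilium gene ANKS6, the endophilin gene SH3GL1, the phospholipase gene PLCG2, ZMYND19, the kinase gene TNK2, PDCD7 and FAM241A, with lowest-of-3 folds of 14.0 to 18.5. Of the 20, 9 had a core peak on a start window.

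**Figure D2:**
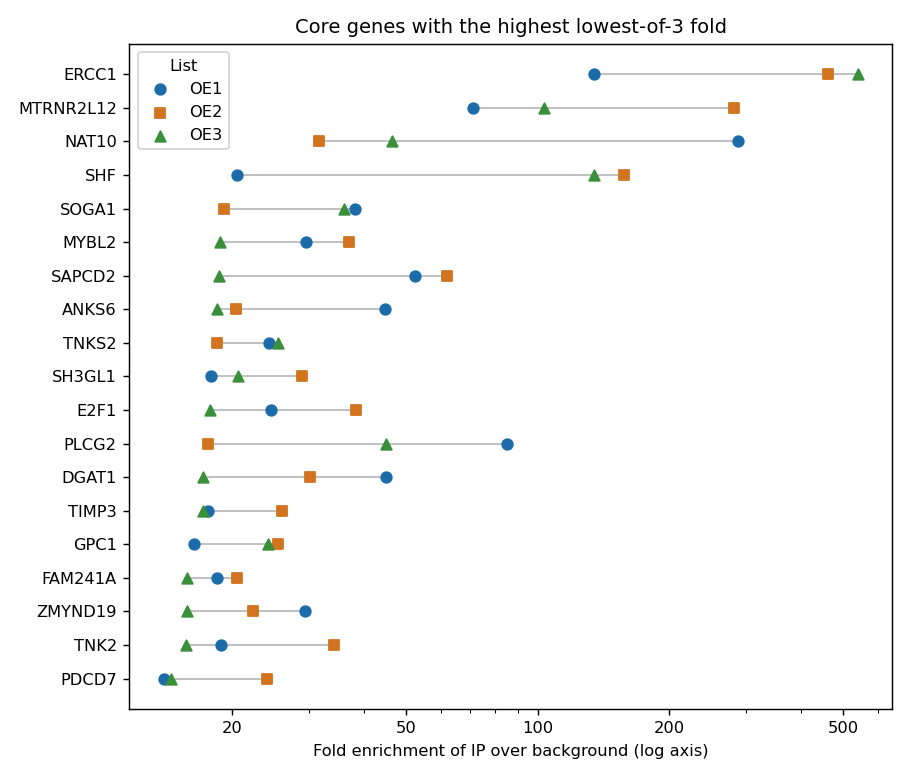
Fold enrichment of IP over background (horizontal log axis) in OE1 (circles), OE2 (squares) and OE3 (triangles) for core genes among the 20 with the highest lowest-of-3 fold; grey lines join the lowest and the highest list. ERCC1 ran from 134 to 539, and the last gene, PDCD7, from 14.0 to 24.05.

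Several of the strongest core peaks lay on or beside genes of small non-coding RNAs or their copies. This was looked for after the values were seen. The SHF core peak (chr15:45200990-45201175, folds 20.6, 158 and 134 in OE1, OE2 and OE3) shares 25 bases with the histidine tRNA gene TRH-GTG1-9, at 45201151 to 45201222. The ERCC1 core peak, at 45478736 to 45478828 on chromosome 19, lies outside the RefSeq span of ERCC1 and 48 bases past TRU-TCA1-1, the selenocysteine tRNA gene, which ends at 45478687. The WDR74 core peak, with folds of 10.1, 20.5 and 17.5, covers all 191 bases of RNU2-2, a gene of the U2 RNA of the spliceosome.

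The PLCG2 core peak, with folds of 84.8, 17.6 and 44.9, covers RN7SKP176, a copy of 7SK RNA. The SIAE core peak, with folds of 5.44, 7.39 and 40.9, covers RNA5SP352, a copy of 5S ribosomal RNA. MTRNR2L12 (71.1, 280 and 104) and MTRNR2L8 (6.57, 514 and 10.2) are nuclear copies of mitochondrial ribosomal RNA. Near-identical copies of all these RNAs exist, so the origin of reads at these peaks is uncertain, and the lists give no strand. Of the core peaks, 9 lay within 100 bases of such a gene or copy in each list (1.77%), against 0.0343%, 0.0947% and 0.193% of the other peaks of OE1, OE2 and OE3. Their part in the high folds was not tested. Without peaks near these loci the core held 500 peaks and its median OE1 fold was 8.68.

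Most core genes had a single core peak, counted as OE1 peaks, of which several can overlap the same peak of another list. Of the 440 core genes, 392 had 1, 41 had 2, 4 had 3, and MAD1L1, EPPK1 and NAT10 had 4, 5 and 14. EPPK1, the giant cytolinker epiplakin of epithelia, had highest core folds of 25.99, 19.6 and 10.03 in OE1, OE2 and OE3. MAD1L1, of the spindle checkpoint, had 8.05, 9.89 and 7.59. The genes with 3 core peaks were TRIOBP, which bundles actin, the Ras regulator DAB2IP, RAPGEFL1, and COL4A2, a chain of basement membrane collagen. The RAPGEFL1 core peaks starting at 40177554 and 40178202 had the same folds in OE2 (11.7) and in OE3 (9.9). COL4A2 had 22, 16 and 4 peaks in OE1, OE2 and OE3 and 3 in the core.

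Core peaks had higher folds and scores and were longer than the other peaks of OE1 and OE2, while in OE3 the folds were alike. The rule used these peaks' positions, and strong or long peaks are easier to find again, so the values are given as a description. The median fold was 8.68 for core and 6.23 for other peaks in OE1, 9.15 for core and 6.39 for other peaks in OE2, and 7.20 for both in OE3. The median score in OE3 was 114 for core and 113 for other peaks, against 294 for core and 135 for other peaks in OE1. Median length was 269, 276 and 223 bases for core peaks of OE1, OE2 and OE3, and 174, 187 and 142 bases for the others. Peaks of 1000 bases or more made up 9.04% of core and 3.69% of other peaks in OE1. A false discovery rate of 100% was listed for 47.7% of core and 17.8% of other OE1 peaks, and for every OE3 peak.

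Among OE1 peaks, the share in the core was 1.32% in the lowest quintile by fold and 9.005% in the highest. By length it was 1.64% in the shortest quintile, up to 93 bases, and 7.81% in the longest, from 352 bases up. The share overlapping OE2 alone went the same way, at 27.01% in the lowest and 47.5% in the highest quintile by fold.

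**Figure D3:**
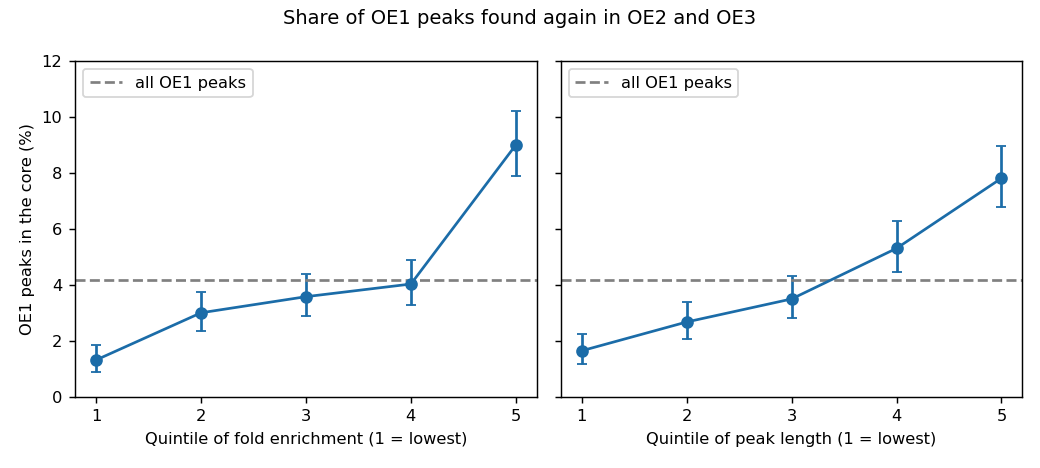
Percentage of OE1 peaks in the core (vertical axis) in quintiles of the OE1 list by fold enrichment (left) and by peak length (right), with exact 95% binomial intervals; the dashed line is the 4.19% of all OE1 peaks. The highest quintile stands at 9.005% by fold and 7.81% by length.

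The lists differed in how strongly they enriched the same position. For the median core peak the highest of the 3 folds was 2.02 times the lowest. The ratio was under 1.5 for 101 core peaks and 4 or more for 57. OE3 was the lowest list for 247 core peaks, OE2 for 135 and OE1 for 127. Across the 509 core peaks, Spearman's rho of the fold was 0.53 for OE1 with OE2, 0.39 for OE1 with OE3 and 0.32 for OE2 with OE3. These are descriptions over peaks that share libraries. A peak on RNF19B, a ubiquitin ligase gene, was nearly equal in the 3 lists (6.80, 6.62 and 6.75), as was one on DENND1A, which acts in clathrin-mediated endocytosis (12.1, 12.1 and 12.6). Single peaks on TTLL11, CHMP6 and PLOD1, a collagen lysyl hydroxylase gene, had ratios of 1.087, 1.089 and 1.073. After MTRNR2L8, the widest ratio was that of MRPL23, a mitochondrial ribosomal protein gene, with 7.15, 13.7 and 133.

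The listed intervals were close where lists shared a core peak. Both ends were equal in all 3 lists for 186 core peaks (36.5%), and 421 (82.7%) had at least 1 end in common with OE2 and with OE3. The SH3GL1 peak, equal in all 3 lists, ended at 4400547, the RefSeq start of that gene. Equal ends are therefore not read as precision of an acetylated position, and whether listed ends follow gene annotation was not tested. The median of the smaller overlap was 210 bases. Just inside the rule, the smallest overlaps were 3 bases, on MEF2D (folds 5.38, 7.99 and 7.43), and 5 bases, on PRKRIP1 (11.01, 5.34 and 5.06). Just outside it, 0 of the 3887 peaks shared by OE1 and OE2 alone lay within 10 bases of an OE3 peak. Seen from each list, the peaks that overlapped both other lists were 4.19% of OE1, 4.27% of OE2 and 16.3% of OE3. Without OE3 the count was 4396 peaks on 2674 genes, without OE1 870 on 741 and without OE2 834 on 707, so the count was most changed by leaving out OE3, the shortest list.

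Sharing a gene was more common than sharing a position. Of 8305 genes with a peak in any overexpression list, 1249 had one in all 3 lists (15.0%) and 440 were core genes (5.3%). The other 809 genes had a peak in every list with no core position. Among them were the ubiquitin ligase gene HERC2, with 19, 26 and 3 peaks in OE1, OE2 and OE3, MACF1, a linker of microtubules and actin, with 19, 13 and 2, and SMARCA4, a chromatin remodelling ATPase, with 12, 11 and 1. AKT1 had its highest folds of 87.03, 54.3 and 36.9 outside the core, at peaks that did not meet the rule, and its core peak stood at 16.7, 18.5 and 12.5.

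By chromosome, 19 gave the most core peaks and X the fewest. On chromosome 19, 78 of 1041 OE1 peaks were core (7.49%, exact 95% interval 5.97 to 9.26%), against 3.88% on all other chromosomes together. Chromosome 19 held 15.3% of the core and 8.56% of the OE1 list. Chromosomes 21 and 22 followed with 11 of 155 (7.10%) and 26 of 398 (6.53%), while X had 4 of 307 (1.30%, 0.356 to 3.30%). Chromosomes 2, 3 and 15 were also low, at 2.27%, 2.03% and 2.24%. Chromosome 11 stood at 5.53% with NAT10 and 3.39% without it. The sharing was also set out for OE1 with each other list alone. With OE2, 46.5% of OE1 peaks on 19 and 27.04% on X were shared, against 35.2% on all chromosomes other than 19, and chromosome 4 was lower than X at 26.2%. With OE3, the shares were 10.4% on 19 and 4.23% on X, against 6.53% on all other than 19. Away from gene starts, 6.47% of the peaks on 19 were core, against 3.43% on all chromosomes.

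**Figure D4:**
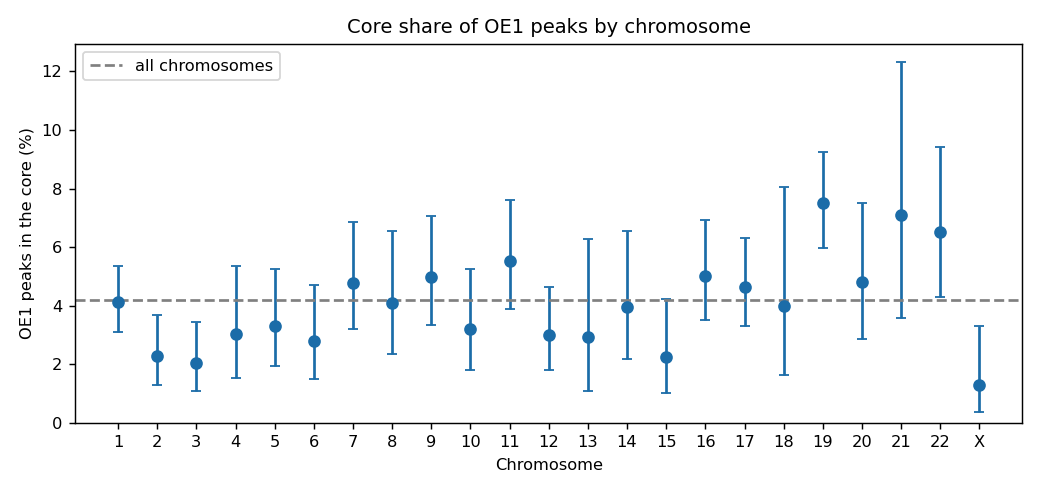
Percentage of OE1 peaks in the core (vertical axis) on each chromosome, with exact 95% binomial intervals; the dashed line is the 4.19% over all chromosomes. Chromosome 19 stands at 7.49% and X at 1.30%.

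Core genes of chromosome 19 beside ERCC1 and SH3GL1 included KLC3, a kinesin light chain (folds 12.8, 19.4 and 14.6 in OE1, OE2 and OE3). Another was RELB, the NF-kappa-B subunit of the non-canonical pathway (11.5, 12.6 and 14.1 over its 2 core peaks). RefSeq counts 1451 protein-coding genes on this chromosome, and core genes came to 4.62 per 100 of them, against 4.88 on chromosome 22, 4.18 on 21, 2.33 on chromosome 1 and 0.472 on X. The highest core genes of other chromosomes included IFNGR2, a chain of the interferon gamma receptor, on 21 (15.2, 29.6 and 10.4), CLTB, a clathrin light chain, on 5 (12.2, 13.6 and 10.2), FOXP4 on 6 (13.1, 14.1 and 12.6), GAS6, a ligand of TAM receptors, on 13 (16.03, 37.2 and 10.3), MYO1D on 17 (13.5, 13.1 and 11.99) and GTPBP6 on X (11.1, 17.7 and 10.4). On chromosomes 7, 12 and 18 they were GPR146 (11.1, 14.6 and 23.2), FAM222A (24.6, 13.7 and 13.5) and ZCCHC2 (11.2, 21.3 and 9.66).

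The core peak of TAF4, a subunit of the transcription factor TFIID, on chromosome 20 at 62064451 to 62065673, holds the whole hairpin of MIR3195, which RefSeq (GRCh38.p14) places at chr20:62064802-62064885 on the plus strand, opposite to TAF4. TAF4 had folds of 9.77, 16.2 and 9.99 in OE1, OE2 and OE3. The hairpin is shown because it lies wholly inside a core peak, and 92.9% of its 84 bases are G or C.
MIR3195: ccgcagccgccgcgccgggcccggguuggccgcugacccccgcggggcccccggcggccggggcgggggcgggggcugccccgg

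Pathway names were attached to few core genes. Of the 440, 133 had an entry in the pathway column (30.2%), against 33.9% of the 5798 genes with an OE1 peak. Of all genes with an OE1 peak, 7.59% were core genes, and of those with a pathway 6.76%, and the counts below are read against these shares. Endocytosis had the most core genes, 11 of its 104 genes with an OE1 peak (10.6%). They include SH3GL1 and CLTB, the ESCRT gene CHMP6, the adaptor gene EPN1, GIT1 and ARAP1, which regulate small GTPases, and the receptor genes TGFBR2 and IGF1R. GIT1 had folds of 17.3, 40.1 and 9.27 in OE1, OE2 and OE3. TGFBR2 had 4.85, 5.49 and 13.7.

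FoxO signalling had 8 core genes of 65 (12.3%), led by AKT1, the ubiquitin ligase gene FBXO32 (7.86, 9.71 and 9.91) and the deacetylase gene SIRT1 (6.75, 10.3 and 16.2). MAPK signalling had 8 of 93 (8.60%), led by AKT1, RELB and ECSIT (7.94, 7.33 and 12.01). The Hippo pathway had 7 of 69 (10.1%), with the polarity gene SCRIB (9.65, 7.63 and 7.02), AXIN1, TP73, a relative of p53 (6.22, 5.93 and 12.6), and NF2 (4.04, 4.04 and 7.12). Rap1 signalling had 7 of 76 (9.21%), with BCAR1, a docking protein of focal adhesions, at 11.6, 20.1 and 12.6, and the growth factor gene PDGFB at 5.28, 11.6 and 13.1. Pathways in cancer had 8 of 113 (7.08%) and PI3K-Akt signalling 7 of 101 (6.93%), at the level of all genes. The PI3K-Akt list was led by RPTOR, the raptor subunit of mTORC1 (14.04, 9.23 and 17.6), and included the phosphatase subunit gene PPP2R5A (10.6, 6.46 and 9.66). Among cancer pathway genes, DAPK3, a kinase linked to cell death, stood below E2F1 with 12.4, 11.6 and 8.04 over its 2 core peaks.

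The greatest share of these 10 pathways was that of the set named Salmonella infection, with 6 of 29 genes (20.7%). Its core members included the kinesin light chain genes KLC1, KLC3 and KLC4, the myosin gene MYH14 and IFNGR2, which encode motor subunits and a receptor chain of the human cell. KLC1 had folds of 7.04, 8.54 and 8.84 at a core peak that lies outside the RefSeq span of KLC1, and KLC4 had 4.56, 5.12 and 2.74. Epstein-Barr virus infection had 6 of 45 (13.3%), among them the Janus kinase gene TYK2 (10.2, 6.82 and 10.9). Axon guidance had 6 of 61 (9.84%), led by the netrin receptor gene UNC5B (13.7, 14.6 and 10.8), the semaphorin gene SEMA4B (8.26, 8.61 and 6.01) and RASA1, a GTPase-activating protein of Ras (11.99, 5.55 and 11.6). Several genes stand in more than 1 of these sets, such as AKT1 and TGFBR2.

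**Figure D5:**
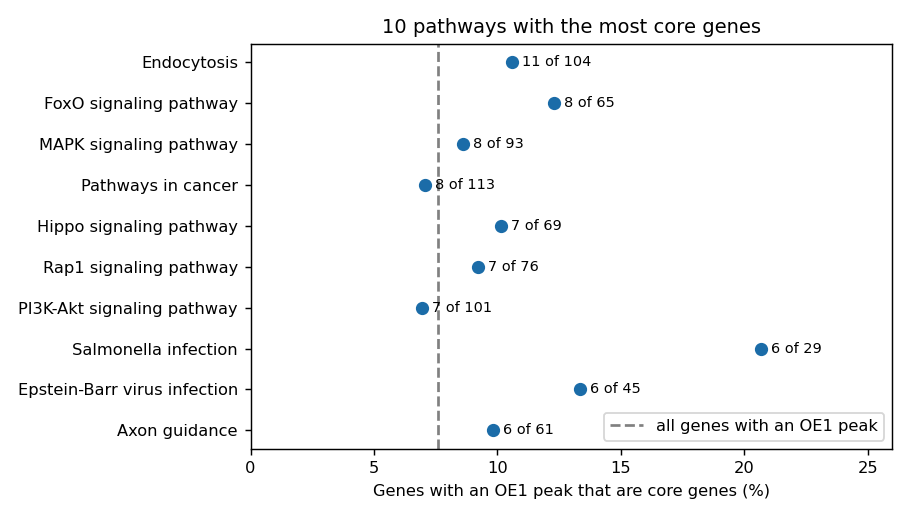
Percentage of the genes with an OE1 peak that are core genes (horizontal axis) for the 10 pathways with the most core genes; labels give core genes of all genes with an OE1 peak, and the dashed line is the 7.59% of all genes. Salmonella infection stands at 20.7% and PI3K-Akt signalling at 6.93%.

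Gene lists chosen for keratinocytes and for RNA modification held 0 or 1 core genes each beside NAT10, which with 7.59% of all genes with an OE1 peak being core is too few to set them apart. Basal and hemidesmosome genes had 12 members with an OE1 peak, 2 with an OE3 peak and 0 in the core. Of 17 desmosome and adherens junction genes with an OE1 peak, 1 was core, the nectin gene NECTIN1 (22.4, 11.4 and 4.89 in OE1, OE2 and OE3). Of 7 differentiation genes with an OE1 peak, 1 was core, EVPL, which encodes envoplakin of the cornified envelope (8.68, 15.5 and 5.24). None of 17 genes of m6A and m5C modification with an OE1 peak, nor of 12 translation factor genes, was core, and the translation factors had 0 members with an OE3 peak. The keratin genes KRT6C (7.55, 8.35 and 4.0) and KRT75 (3.61, 2.23 and 5.07), which stood in no list and were picked out after their values were seen, were core too, and reads of near-identical keratins may be split between genes.

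Chromatin regulators had 31 members with an OE1 peak and 5 in the core (16.1%). They included the histone methyltransferase genes KMT2B (16.03, 9.60 and 5.45) and KMT2C (9.13, 5.14 and 14.1), the demethylase gene KDM4B (13.2, 6.39 and 14.2) and the deacetylase gene HDAC5 (5.44, 20.9 and 11.4). Of EGFR, Notch and Wnt genes 4 of 20 with an OE1 peak were core: AXIN1 (9.30, 25.9 and 7.0), the Wnt coreceptor gene LRP5 (9.16, 14.2 and 8.36), the receptor gene NOTCH1 (4.55, 12.7 and 6.95) and the ligand gene WNT10A (6.82, 5.48 and 11.9). For NF-kappa-B genes it was 2 of 11, RELB and TNIP1, for AKT and mTOR genes 2 of 13, AKT1 and RPTOR, and for motors and spectrins 3 of 25, MYH14, MYO10 and MYO5B. Respiratory chain and ATP synthase genes gave ATP5F1D (3.69, 3.59 and 2.52), 1 of 2. Nucleotide excision repair genes gave ERCC1, 1 of 10, by the name on the peak only, since that peak lies outside the RefSeq span of ERCC1. Of the ac4C machinery, 1 of 3 genes with an OE1 peak, NAT10 itself, was core.

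The keratinocyte label was set against these lists. Over the 3 overexpression lists, 14 of 18 basal, 20 of 27 junction and 16 of 34 differentiation genes had a peak, against 3 of 8 endothelial markers, 2 of 9 for melanocytes, 2 of 12 for immune cells and 2 of 10 for fibroblasts. The share of all genes with a peak in these lists was not computed. These counts therefore lack a background and are not read as evidence for the label. In the core were 0 of the 5 markers of other cell types with an OE1 peak and 0 of 12 basal genes, where 7.59% of all genes with an OE1 peak were core, so the core does not separate these lists. A peak is not an expression level, and absence of a peak does not show absence of the transcript.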

How the data were processed

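IP and input libraries came from Trizol-extracted total RNA and a whole-RNA kit for low input, per the labels' protocols. The tools named were cutadapt 1.9.3, HISAT2 2.0.4 and FastQC, with build GRCh38, per the submitters' processing notes. Peak names begin with MACS, and the sources used here give no version of it. The authors deposited 1 list of peaks on mRNA per replicate. Each deposited peak has a score (minus 10 times the log10 p-value, per the file headers), a fold enrichment (a linear ratio, per the file headers), a false discovery rate, read as percent because the deposited headers give no unit, and a length. In the deposited OE2 list, 2 lines were empty and were skipped.

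Starts in the deposited lists count from 0, and all printed positions count from 1. Peaks of 2 lists were called shared at 1 or more common bases. A gene's fold in a list is the highest among its peaks of that list that overlap a core peak of the gene. No contrast between groups was made and no test run. Shares carry exact (Clopper-Pearson) 95% intervals, which cover counting error only.

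Genes were named by rule: NAT10, the 20 core genes with the highest lowest-of-3 fold, the 10 with the most core peaks, the 3 highest in each of the 10 pathways with the most core genes, the highest on each chromosome, list members on a core peak, and the core peaks with the smallest and greatest spread. WDR74, SIAE, HERC2, MACF1, SMARCA4 and further pathway members were chosen after their values were seen. The members and lists were chosen with earlier results of these data known, and gene starts, small RNA loci and sequence letters were looked at after the lists were seen. RefSeq tables of GRCh38.p14 gave gene spans (429 of 440 core genes matched by identifier, 11 of them under another symbol), start windows, and hairpins; the strand of the start windows was checked by the bases at the start. Small RNA loci were RefSeq genes of tRNA, snRNA, snoRNA, rRNA and similar classes and pseudogenes with such symbols. The genome sequence was not used here, so the planned motif search over whole peaks was not run. Some genes that the rule names are not reported here. The overlap code was tested on simulated lists. Python 3.11.15, pandas 2.3.3, numpy 2.4.6, scipy 1.17.1 and matplotlib 3.10.9 were used. Alternatives covered the overlap, fold, score, anchor list, list length and each replicate.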

Additional observations from a re-analysis of the deposited data

How the results depend on the processing

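The core of 509 peaks on 440 genes kept within 1.5 times its size with an overlap of 50% of both peaks, a base common to all 3 lists, a fold of at least 4, OE2 or OE3 as anchor, and without NAT10 or small RNA loci. It held 186 peaks on 161 genes with equal ends in all lists, 215 on 192 with a score of at least 100, and 193 on 168 with lists of equal length, and 1249 genes where any position counted. Leaving out 1 list gave 834 to 4396 peaks and 707 to 2674 genes. The median fold, 8.68 in OE1, was 11.1 with a score of at least 100, 13.8 with equal list lengths, 7.16 on OE3, and 6.78 to 7.84 with a list left out. Here and below, values on OE3 describe OE3 peaks, and values without OE1 describe OE2 peaks. These values thus differ by the list measured as well as by the setting. The median length of 269 bases was 240 with an overlap of 50%, 172 with equal ends, 339 with equal list lengths, 223 on OE3, and 218 to 252 with a list left out. The share on chromosome 19, 7.49%, was 3.55% with equal ends, 4.84% with a score of at least 100, and 10.4% to 46.5% with a list left out. With equal ends the other chromosomes stood at 1.34%. The share of core peaks at a gene start, 28.9%, was 23.1% with equal ends, 32.75% with a score of at least 100, 39.7% with equal list lengths, 23.5% on OE3, and 20.6% to 25.6% with a list left out. Endocytosis had 7 core genes with equal ends, 4 with a score of at least 100 or equal list lengths, 23 where any position counted, and 15 to 64 with a list left out. Of the 20 highest genes, 18 were core with an overlap of 50% and 5 with equal ends, and all 20 under the other planned settings. Fewer peaks or lists enter several of these settings by construction. The cause of the other shifts was not tested. Lines and distinct intervals were the same in every list, so counting lines gives the same core. No paired analysis was possible because no groups were compared and the results come from no test. Unknown read depth and the short OE3 list limit what the core can hold.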

Other observations

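Among gene ontology processes, transcription from DNA templates had the most core genes, 43 of 640 genes with an OE1 peak (6.72%), near the 7.59% of all genes with an OE1 peak. Intracellular signal transduction had 18 of 125 (14.4%), axon guidance 15 of 126 (11.9%) and positive regulation of GTPase activity 19 of 191 (9.95%). By cell compartment, 157 core genes were annotated to the cytoplasm (8.55% of 1836), 133 to the nucleus (7.08% of 1879), 69 to extracellular exosomes (8.69% of 794) and 33 to the mitochondrion (7.52% of 439). Terms overlap in their genes, and these counts carry no test.

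Among the 20 peaks of highest fold in each list, NAT10 accounted for 10 in OE1, 0 in OE2 and 1 in OE3, and peaks within 100 bases of a small RNA gene or copy for 3, 5 and 4. The core held 13, 9 and 6 of these 20.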
